A study of Homo sapiens with 4 samples.

Results

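The progesterone receptor (PR) bound 1340 regions that lay far from every locus of the deposited transcript tables, among 11181 regions bound in T47D cells treated with progestin (12.0%). They were selected on their measured binding score, which had to be below 150, and on position: the midpoint had to be outside every locus of the transcript tables, more than 1 kb from any GENCODE protein-coding transcript start, and more than 50 kb from the nearest locus edge. These are called distant sites here. Intergenic sites of the same score range within 50 kb of a locus (2701) and sites inside a locus (4853) served for comparison, and 73 regions that met the distance conditions had a score of 150 or more and were kept apart.

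T47D is an established human breast carcinoma cell line of luminal type that expresses PR. PR binding was mapped by ChIP-seq in 1 library, from cells kept for 3 days in charcoal-treated serum, which is depleted of steroids, and then given the synthetic progestin R5020 at 10 nM for 1 h. Transcripts were measured by paired-end RNA-seq in 1 library of cells given 10 nM R5020 for 3 h and 1 library given the vehicle ethanol (EtOH) for 3 h, both after 24 h in charcoal-treated serum. An input DNA library completed the set of 4 samples and is not analysed here. There was 1 library per condition, so no difference between conditions could be tested, and the intervals given are 95% intervals that cover counting error only.

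PR is a ligand-activated transcription factor of the nuclear receptor superfamily. Once bound by progestin, it dimerises and occupies DNA at an inverted repeat of a short half-site, the hormone response element, which it shares with the glucocorticoid, androgen and mineralocorticoid receptors. Much steroid receptor binding in the genome lies away from promoters, at enhancers within genes or between them, and enhancers can act on promoters across long distances, which makes the gene served by a remote site hard to name from position alone.

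The sequence of the distant sites was read from the hg19 build in the 300 bases centred on each midpoint. The hormone response element was searched as the inverted repeat GNACANNNTGTNC, in which N is any base and which reads the same on both strands. It was found in 20 of the 1340 windows (1.49%, 0.968 to 2.29%), against 10 of 2680 windows taken 5 kb to each side of the same sites (0.373%, 0.203 to 0.686%). The same half-sites in the everted order, TGTNCNNNGNACA, were in 9 distant windows (0.672%) and in 20 of the windows 5 kb away (0.746%). The inverted repeat was thus more frequent at the sites than beside them, whereas the everted arrangement was not, although most distant sites held neither. Its share among near intergenic sites was 2.11% (1.63 to 2.72%) and inside loci 1.61% (1.29 to 2.0%), and both intervals overlap that of the distant sites. Sequences of 8 of the 20 sites with high scores are shown, because they carry the receptor's known element, each on the plus strand with the repeat in capitals and 14 bases to either side.

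LOC727710 to KIAA0182, chr16:85493403-85494060, score 114.21: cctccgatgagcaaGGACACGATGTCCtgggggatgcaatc
F3 to SLC44A3, chr1:95209548-95209974, score 109.81: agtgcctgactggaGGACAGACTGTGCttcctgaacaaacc
SATB1 to KCNH8, chr3:18814373-18814725, score 106.22: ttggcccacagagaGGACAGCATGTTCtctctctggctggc
LOC727710 to KIAA0182, chr16:85514255-85514812, score 106.08: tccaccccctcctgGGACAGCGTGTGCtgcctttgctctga
FAM150B to TMEM18, chr2:589531-589869, score 90.51: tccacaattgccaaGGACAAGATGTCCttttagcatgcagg
RPS6KA4 to SLC22A11, chr11:64272500-64272870, score 88.27: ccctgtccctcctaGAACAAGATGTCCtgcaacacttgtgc
SORL1 to MIR100HG, chr11:121615585-121616057, score 81.08: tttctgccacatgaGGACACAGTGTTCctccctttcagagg
PROX1 to SMYD2, chr1:214366670-214367148, score 80.71: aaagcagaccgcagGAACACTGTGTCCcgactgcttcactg

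The 20 sites with the repeat had scores of 53.2 to 124.19 with a median of 79.7, and in 16 of them the repeat lay within 100 bases of the midpoint. Ordered by score and divided into 4 parts of 335 sites each, the distant sites held the repeat in 1, 4, 8 and 7 windows from the lowest part to the highest. The longer form with all 6 bases of each half-site, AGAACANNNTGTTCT, was in 0 of the 1340 windows, which allows a share of up to 0.224% (3 counts of 1340). Of the 73 sites at matching distance with a score of 150 or more, 4 held the shorter form (5.48%, 2.15 to 13.3%).

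A single half-site, AGAACA on either strand, did not mark the distant sites, with 21.7% of windows (19.6 to 24%) against 22.1% (20.6 to 23.7%) 5 kb away. Letters bound by other factors of luminal cells were no more frequent at the sites than beside them. The forkhead letters TGTTTAC, read by FOXA1 and its relatives, were in 3.21% of site windows and in 4.40% of those 5 kb away. The AP-1 letters TGANTCA were in 8.28% and 9.40%, and the GATA letters AGATAA in 13.1% (11.4 to 15%) and 17.6% (16.3 to 19.1%). All of these were searched on both strands, AGAACA is a part of the longer repeat, and the windows differed in base content, as given next. At the 73 sites with a score of 150 or more the forkhead letters were in 10 windows (13.7%, 7.61 to 23.4%).

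The base content of the distant sites stood out from their surroundings. The median window held 50.3% G and C (50 to 51%), while the windows 5 kb to each side held 42.7% (42.3 to 43.3%). In 1066 of the 1340 sites (79.6%, 77.3 to 81.6%) the site was richer in G and C than the mean of its own 2 flanking windows, by a median of 6.50 percentage points over all sites. The median number of CpG dinucleotides was 4 per distant window and 2 in the windows beside. Near intergenic sites (55.3%) and sites inside loci (56.7%) were richer still, and they lay in richer surroundings.

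**Figure D1:**
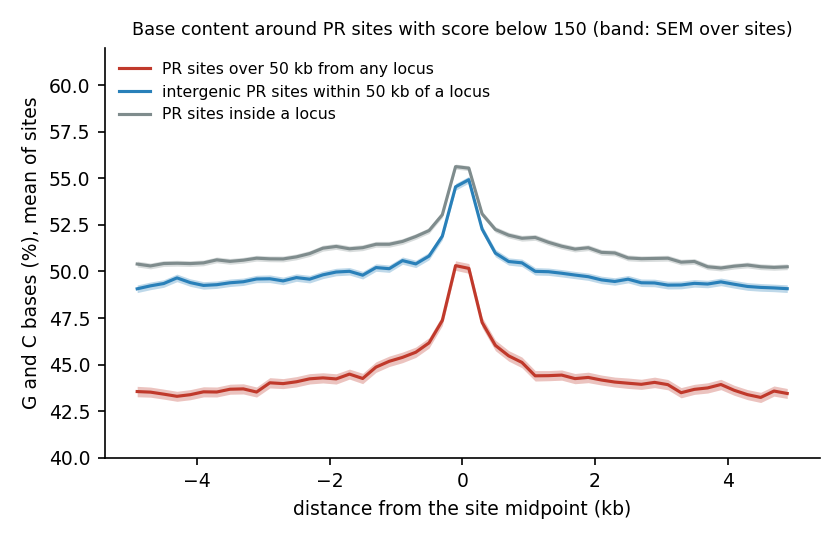
Mean percentage of G and C bases in bins along 5 kb to each side of the site midpoint, for distant sites, near intergenic sites and sites inside loci with scores below 150. Bands give the SEM over sites of 1 library. Each line peaks at the midpoint, and the line of the distant sites runs lowest throughout, from 43.4% beyond 4 kb to 50.2% in the central bins.

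Of the highest-scoring distant sites, 2 that held half-sites but no exact match to the inverted repeat are shown. In the site at chr2:76483907-76484340, with a score of 148.79 between GCFC2 and LRRTM4, which encodes a synaptic adhesion protein, the nearest locus edge was 491 kb away and the window held 2 single half-sites and no inverted repeat. The site at chr12:32599408-32599843, with a score of 148.58 between BICD1 and FGD4, held 1 half-site. The site at chr9:139499102-139499942, with a score of 147.3, held no half-site and no exact match to the repeat, and is not printed. Over all distant sites the half-site was no more frequent than beside them, as given above. The windows next to LRRTM4 and FGD4 are printed on the plus strand, as sequences of strong sites without an exact match to the repeat. AGAACA or its complement TGTTCT is in capitals.

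GCFC2 to LRRTM4, chr2:76483974-76484273: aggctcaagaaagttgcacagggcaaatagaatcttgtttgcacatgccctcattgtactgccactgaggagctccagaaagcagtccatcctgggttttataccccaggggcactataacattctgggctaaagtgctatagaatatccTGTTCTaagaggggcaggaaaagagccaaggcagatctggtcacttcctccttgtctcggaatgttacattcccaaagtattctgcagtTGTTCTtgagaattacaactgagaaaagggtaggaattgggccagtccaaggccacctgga
BICD1 to FGD4, chr12:32599476-32599775: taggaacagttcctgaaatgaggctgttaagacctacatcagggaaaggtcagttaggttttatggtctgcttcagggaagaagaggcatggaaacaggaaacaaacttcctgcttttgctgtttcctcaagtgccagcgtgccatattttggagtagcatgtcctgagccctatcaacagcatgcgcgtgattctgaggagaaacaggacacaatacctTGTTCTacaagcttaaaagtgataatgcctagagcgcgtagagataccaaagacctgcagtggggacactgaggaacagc

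The score of a site is 10 times the negative log10 of the p-value given by the peak caller, and it is described here without a test because it chose the sites. The lowest distant site scored 50.03, the median was 72.24 (70.76 to 73.7) and the highest was 148.9. Near intergenic sites had a median of 72.29 and sites inside loci 73.94. A score of 100 or more was reached by 154 distant sites (11.5%). The site closest below the limit was chr8:93498488-93498920, between RUNX1T1 and FLJ46284 with 148.9, and the closest above it was chr16:85411100-85411755 with 151.27. Of all sites at this distance whatever their score, 5.17% (4.13 to 6.45%) reached 150, against 3.10% (2.65 to 3.61%) inside loci 3.95% (3.29 to 4.73%) among near intergenic sites and 5.50% (4.57 to 6.60%) within 1 kb of a protein-coding start.

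The other sites among the 10 highest lay in varied settings. The site chr8:55114706-55115407, with a score of 148.43, was 54 kb from MRPL15, a mitochondrial ribosomal protein gene, and 255 kb from SOX17. The site chr9:139499102-139499942, between MIR4674 and the angiogenic factor gene EGFL7, scored 147.3 and was 841 bases wide. Scores of 143.88 and 143.54 were given to chr14:25777297-25777778, 258 kb from STXBP6 and 1138 kb from NOVA1, and to chr11:129187427-129187858, 58.2 kb from BARX2 on the side of ARHGAP32. The site chr16:34462604-34462813 between UBE2MP1 and LOC283914 reached 143.77 with a width of 210 bases, and chr2:558767-559270 between FAM150B and TMEM18 reached 141.79. Of the 10 sites, 3 had another PR site within 10 kb.

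The distant sites were 176 to 1167 bases wide with a median of 444 (437 to 452), and those inside loci had a median of 458 (455 to 462). A subset of 61 sites (4.55%, 3.56 to 5.80%) was narrower than 250 bases, with a median width of 215. These narrow sites scored a median of 107.1, and the 1279 wider ones 70.76. Their windows held 43.7% G and C, below the 50.3% of all distant sites. Narrow sites made up 3.50% of the sites inside loci (3.02 to 4.06%) and 3.48% of the near intergenic ones (2.85 to 4.24%).

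The median distant site lay 129 kb from the nearest locus edge. The distance was between 50 and 100 kb for 529 sites, between 100 and 200 kb for 386, between 200 and 500 kb for 298, between 500 kb and 1 Mb for 109, and over 1 Mb for 18. The score showed no steady change with distance, and its median was 72.31, 70.76, 74.01, 71.84 and 67.87 over these ranges in the same order. The most remote site, chr11:38257421-38257879, scored 62.42 and lay 1577 kb from C11orf74 and 1878 kb from LRRC4C, which encodes a synaptic adhesion protein. The next were chr4:180581879-180582352 between LOC285501 and LINC00290, 1403 kb from the closer of them, and chr11:97454924-97455425 between JRKL and CNTN5, 1328 kb away. The site chr10:9402710-9402978 lay 1286 kb beyond GATA3, and chr14:43657322-43657682 lay 1284 kb from LRFN5.

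At the distance limit, the site chr11:35110057-35110768 between PDHX and CD44 was included with 50004 bases and chr11:119649226-119649613 between PVRL1 and TRIM29 was left out with 49984. The condition on transcript starts removed 9 sites. The closest site retained was chr8:55472557-55473198 between SOX17 and RP1, 1148 bases from a start, and the closest removed was chr19:8740700-8741191 between ADAMTS10 and ACTL9, 840 bases from one.

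Distant from the loci of the transcript tables did not mean distant from every gene in a later annotation. With GENCODE release 44, the midpoint was in no gene for 857 sites (64.0%, 61.3 to 66.5%), in a long noncoding RNA gene for 334 (24.9%, 22.7 to 27.3%), in a protein-coding gene for 134 (10.0%, 8.51 to 11.7%) and in another kind of gene for 15. Of the 334 in long noncoding RNA genes, 306 were intronic and 28 exonic, and of the 134 in protein-coding genes, 130 were intronic and 4 exonic. GSE1, the current name of KIAA0182, held 44 of them in a longer transcript than the tables list, HMCN2 held 5, and IQSEC1 and RIMBP2 held 4 each. The site of score 148.58 next to FGD4 was also in an FGD4 intron. For these sites the name "distant" holds only for the loci of the transcript tables, and 282 of the 1340 were also over 50 kb from any GENCODE gene, coding or noncoding.

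Distant sites had fewer PR sites around them than other sites did, and the selection fixed part of this. No site inside a locus can lie within 50 kb of a distant site. Sites with scores below 150 numbered 1.39 per Mb of sequence that met the distance conditions, 4.03 near loci and 4.21 inside them. How much of the difference follows from the selection was not tested. Another PR site of any score lay within 10 kb for 330 of 1340 (24.6%, 22.4 to 27.0%), against 40.5% (38.6 to 42.3%) of near intergenic sites and 42.3% (41.0 to 43.7%) of sites inside loci. Within 5 kb the shares were 18.9%, 27.8% and 31.3%, and within 50 kb 45.9%, 69.3% and 70.8%, in the same order. The median distance to the nearest PR site was 64.7 kb for distant sites, 17.2 kb for near intergenic sites and 15.6 kb for sites inside loci. The intervals of the distant sites do not overlap those of the other classes at any of the 3 distances. Without the stretch of 43 sites described below the share within 10 kb was 22.1%.

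**Figure D2:**
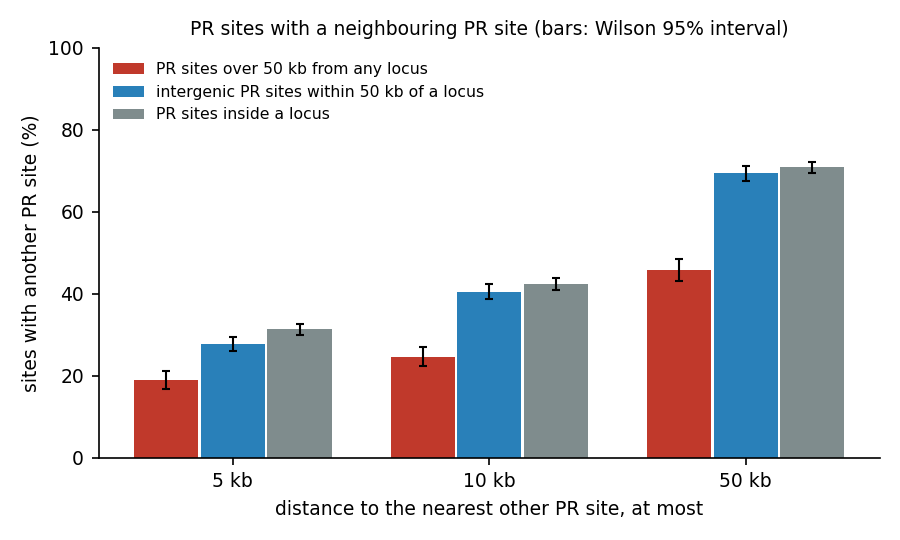
Percentage of sites with another PR site within 5, 10 or 50 kb (bars, with Wilson 95% intervals) for distant sites, near intergenic sites and sites inside loci, all with scores below 150. The distant sites have the lowest bar at each distance, 18.9% at 5 kb, 24.6% at 10 kb and 45.9% at 50 kb.

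When distant sites within 50 kb of each other were joined, 800 stood alone, 266 formed 133 pairs and 114 formed 38 groups of 3. The remaining 160 were in 22 groups of 4 or more. By far the largest was on chromosome 16 (chr16:85391973-85587395), where 43 distant sites fell within 195 kb between LOC727710 and KIAA0182, with a median gap of 3.09 kb between neighbours. In GENCODE all 43 were in introns of GSE1, the current name of KIAA0182. A further 8 PR sites with scores of 150 or more lay among them, so that the stretch held 51 sites in all. The 43 had scores of 50.46 to 138.49 with a median of 64.55, below the 72.24 of all distant sites, and 60.7% G and C in the median window. The interval between those loci is 308 kb long, and it had 207 distant sites per Mb once 50 kb at each end was set aside.

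The next group was on chromosome 14 (chr14:104715834-104950794), with 14 sites over 235 kb between KIF26A and C14orf180. Its scores ran from 51.92 to 115.2 with a median of 77.7, and 1 of its sites was in an intron of TMEM179 in GENCODE. The third was on chromosome 8 (chr8:143056764-143196564), with 9 sites over 140 kb between FLJ43860 and MIR4472-1 and scores of 53.2 to 130.03. Groups of 8 followed between MYEOV and CCND1 on chromosome 11 (chr11:69209436-69354844) and between OPA1 and LOC647323 on chromosome 3 (chr3:193544882-193588894). The group near OPA1, which encodes a mitochondrial fusion protein, was the more compact, with 8 sites in 44 kb, and it contained the site with the sixth-highest score, 146.71. The 7 sites between UNCX and MICALL2 on chromosome 7 had the highest median score among the groups of 5 or more, 107.46.

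**Figure D3:**
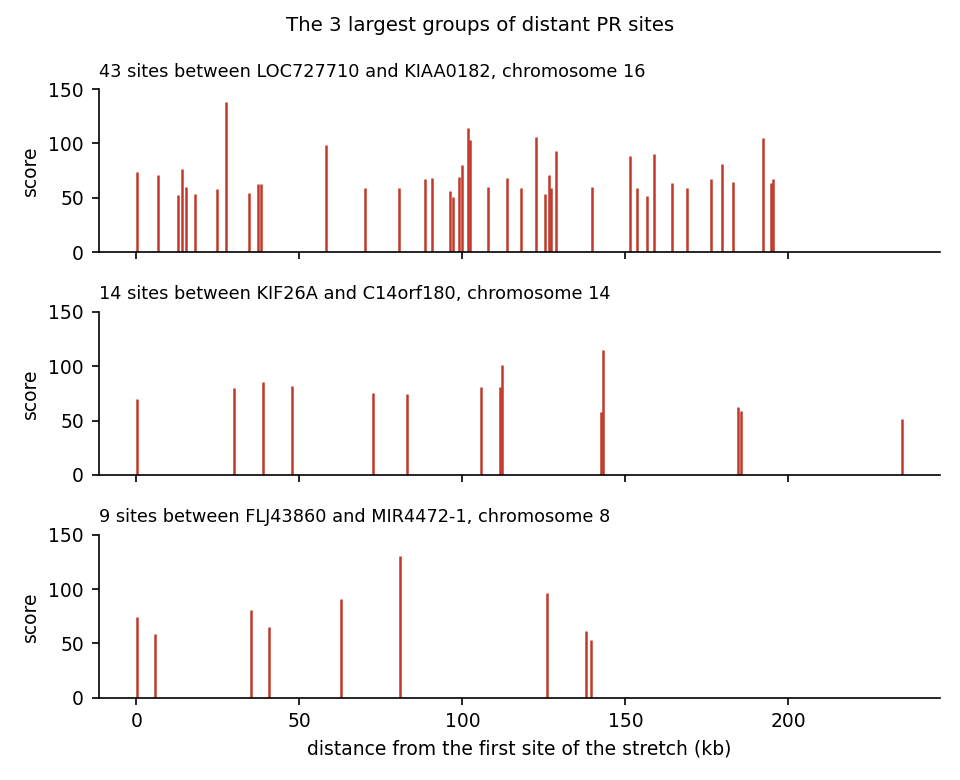
Scores of the sites in the 3 largest groups of distant PR sites, drawn as vertical lines against the distance in kb from the first site of each group. The upper panel has 43 sites over 195 kb, the middle panel 14 over 235 kb and the lower panel 9 over 140 kb, and no score reaches 150 by the selection.

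Between 2 neighbouring loci, the 1340 sites fell into 700 intervals, of which 415 held 1 site each. At the other end, 41 intervals held 5 or more and accounted for 326 sites. These included the interval from GATA3, a luminal transcription factor, to SFTA1P with 8 sites over 2709 kb, and that from KCNJ2 to SOX9 with 5 sites over 1941 kb. No locus was listed on 1 side for 18 sites, which lay towards chromosome ends. Within 1 Mb of an assembly gap of at least 50 kb, such as a centromere, lay 219 distant sites (16.3%). Without them the share with a neighbour within 10 kb was 22%, and the share with the inverted repeat 1.69%.

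Chromosomes differed widely in the density of distant sites. Chromosome 8 had the most with 144, followed by chromosome 11 with 132 and chromosome 5 with 108, while chromosome 22 had 8 and chromosome 19 had 6. Per Mb of sequence that met the distance conditions, chromosome 11 had 3.43 sites and chromosome 16 had 3.42, against 0.383 on chromosome 4 and 0.313 on the X chromosome, an 11.0-fold range with a median of 1.47. The density of the other PR sites with a score below 150 varied in the same way, from 0.677 per Mb on the X chromosome to 13.1 on chromosome 17. Across the 23 chromosomes Pearson's r was 0.88 and Spearman's rho 0.85, as a description of 1 library in which all points share the same depth and peak calls. Chromosomes poor in distant sites were thus mostly poor in PR sites of every position. Chromosomes 2, 4, 6, 13, 18 and X all had fewer than 0.7 distant sites per Mb, and chromosome Y had 0.

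**Figure D4:**
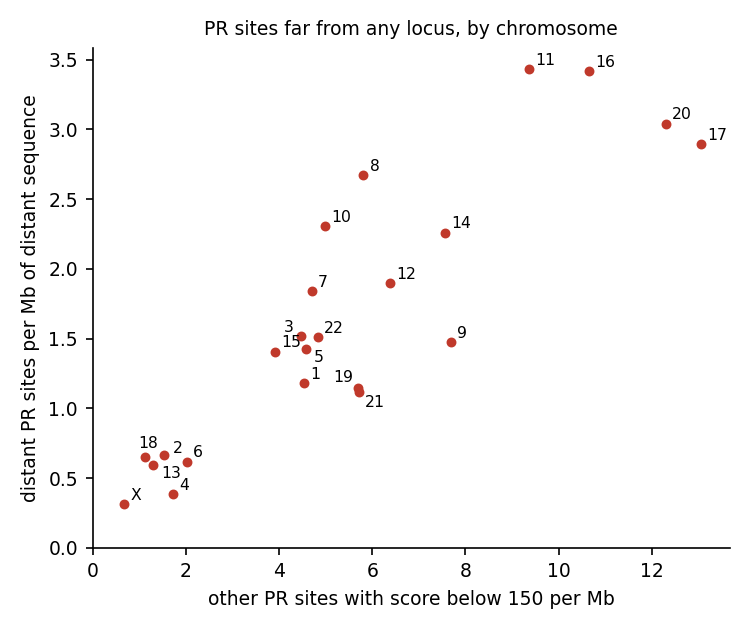
Distant PR sites per Mb of sequence over 50 kb from any locus against all other PR sites with scores below 150 per Mb, with 1 labelled point for each of chromosomes 1 to 22 and X. Chromosomes 11 and 16 are highest on the vertical axis at 3.43 and 3.42, and the X chromosome is lowest at 0.313.

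The nearest loci to the left and right of the distant sites belonged to 1312 genes. Their transcripts were compared between R5020 and EtOH as log2((FPKM + 1)/(FPKM + 1)), FPKM being fragment counts scaled to transcript length and library depth, summed over a gene's transcripts. The coverage of the listed transcripts amounted to 36.2 M reads of 50 bases in the R5020 library and 35.2 M in the EtOH library, which is not the total number of reads of a library. PGR, which encodes PR, was at 23.7 FPKM in EtOH and 15.3 in R5020, ESR1, the estrogen receptor gene, at 17.2 and 10.9, and FKBP5, a well-known steroid receptor target, rose from 15.9 to 86.6. Of the 1312 flanking genes, 542 (41.3%) reached an FPKM of 1 in at least 1 condition, compared with 47.3% of all 23287 genes, and 357 were listed at 0 in both. A listed 0 need not mean no expression: KRT8 and KRT18, abundant luminal keratins, were listed at 0 in EtOH with a failed estimate and at 285 and 174 FPKM in R5020. No such failed estimate was recorded for the flanking genes (0 of 1312).

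Of these 542 genes, 86 were at least 1.5-fold higher in R5020 (15.9%, 13 to 19.2%), where the share over all 11018 genes retained was 7.67%. Another 29 were at least 1.5-fold lower (5.35%, 3.75 to 7.58%), beside 4.14% of all genes, and 427 changed less. The median log2 difference of the flanking genes was 0.09 (0.06 to 0.11) and that of all genes 0.01. Higher levels were therefore more common next to distant sites than over all genes. Lower levels were within counting error of the background at these thresholds. Genes that share a site or an interval are not independent, and no test between the libraries was possible.

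Part of that excess was shared with genes that border long intervals without any such site. Of 1637 retained genes next to an interval of over 100 kb that held no distant site of any score, 190 were higher (11.6%, 10.1 to 13.2%). Interval length was not matched between these genes and the flanking genes. Having another PR site within 50 kb of the gene went with a larger share in both sets. Among flanking genes with such a site it was 60 of 296 (20.3%, 16.1 to 25.2%), and among genes bordering an interval without distant sites 96 of 579 (16.6%, 13.8 to 19.8%). Without any PR site within 50 kb of the gene it was 26 of 246 (10.6%, 7.32 to 15%) and 94 of 1058 (8.88%, 7.32 to 10.8%). The share was higher beside distant sites in both comparisons, and the intervals overlap in both. The difference itself was not tested. Among all retained genes that flank no distant site, those bordering empty intervals included, 8.35% were higher with a PR site within 50 kb and 6.03% without.

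The share of higher genes was 18.3% where the closest distant site lay between 50 and 100 kb, 14.8% between 100 and 200 kb, 16.1% between 200 and 500 kb and 9.09% beyond, with overlapping intervals. It was 15.4% for genes flanked by 1 distant site, 13.7% for 2 and 19.3% for 3 or more, again with overlapping intervals. Next to the 73 sites with a score of 150 or more, 17 of 54 genes were higher (31.5%, 20.7 to 44.7%) and 0 were lower, which allows a share of up to 5.56% (3 counts of 54).

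The 10 largest rises among the flanking genes included several regulators of growth and transcription. CCND1, which encodes the cell cycle regulator cyclin D1, went from 22.2 FPKM in EtOH to 120 in R5020 (log2 difference 2.38). It was flanked by 9 distant sites on its MYEOV side, at 101 to 301 kb from the CCND1 locus, with scores of 53.26 to 95.65. The highest of them, chr11:69315398-69315879, lay 140 kb away, and 1.11 kb from the next distant site. A PR site also lay within the CCND1 locus, so that its level cannot be assigned to the distant ones. The site farthest from CCND1 was in an intron of MYEOV in GENCODE, and 3 were in introns of the long noncoding RNA genes LINC02952 and LINC01488.

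RUNX1, a transcription factor of the Runt family, went from 4.25 to 25 FPKM (2.31) with 1 distant site 555 kb from its locus in the tables, which GENCODE places in an intron of a longer RUNX1. ZNF703, a luminal transcriptional regulator, went from 4.05 to 19.1 FPKM (1.99), with 5 distant sites at 118 to 190 kb that scored between 55.61 and 77.28. NDRG1, a stress-responsive gene, went from 5.34 to 25.2 FPKM (2.05), with a site of score 87.78 at 59.0 kb. TSC22D2 went from 6.30 to 26.2 FPKM (1.90), and MYC, a growth-promoting transcription factor, from 1.53 to 8.31 FPKM (1.88), each with 1 distant site. All of these had at least 1 other PR site within 50 kb of the gene.

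A further 3 of the 10 had no PR site within 50 kb. F3, which encodes tissue factor, the initiator of coagulation, went from 1.41 to 10.4 FPKM (2.24). Its single distant site, of score 109.81, lay 202 kb away, held the inverted repeat GGACAGACTGTGC shown above, and was closer to SLC44A3, at 76.1 kb. STEAP4, a metalloreductase gene, went from 0.509 to 4.86 FPKM (1.96), with a site of score 113.28 and 188 bases in width at 207 kb. ERRFI1, a feedback inhibitor of the EGF receptor, went from 3.55 to 14.7 FPKM (1.78) with a site of score 68.8 at 233 kb.

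Among the 10 largest falls, MIR205HG, the host transcript of miR-205, went from 24.5 FPKM in EtOH to 4.63 in R5020 (log2 difference -2.18), and its distant site was 843 kb away. ZFP36L2, an RNA-binding protein that promotes mRNA decay, went from 49.8 to 20.7 FPKM (-1.23), with a site 52.9 kb away. SATB1, a chromatin organiser, went from 42.0 to 18.1 FPKM (-1.17) with 2 distant sites, of which the one printed above, of score 106.22, was 334 kb away. The ephrin receptors EPHB3 and EPHA4 went from 5.56 to 1.92 (-1.17) and from 4.85 to 1.75 FPKM (-1.09). LURAP1L went from 66.7 to 32.0 (-1.04), FAM84B from 19.4 to 9.20 (-1.0) and TCF7L2, a Wnt pathway transcription factor, from 8.49 to 4.05 FPKM (-0.91). RNU6ATAC, listed with a length of 125 nucleotides, for which FPKM is less reliable, went from 9.92 to 4.65 (-0.95).

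GATA3, a transcription factor that defines the luminal lineage, went from 253 to 126 FPKM (-1.0) and was flanked by 8 distant sites, all downstream on the SFTA1P side. They lay 62.7 to 1745 kb from the GATA3 locus with scores of 50.98 to 88.46, and the pair at chr10:8623285-8623725 and chr10:8626558-8626956 was 3.25 kb apart. At least 1 PR site also lay within the GATA3 locus.

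Among the retained genes with 10 or more distant sites the differences were uneven. Other genes with as many were below an FPKM of 1, such as LOC727710 with 43 and FLJ43860 with 17. KIAA0182, whose locus in the transcript tables lay next to all 43 sites of the chromosome 16 stretch, went from 46.4 to 64.5 FPKM (0.47), less than 1.5-fold. In GENCODE these sites were in its introns, as given above. AUTS2 with 14 distant sites stayed at 11.4 and 10.5 FPKM, and BUD13 and STAG3L4, with 12 each, were at 3.14 and 3.40 FPKM and at 5.78 and 5.96 FPKM. BARX2, a homeobox transcription factor with 10, went from 0.659 to 2.58 FPKM (1.11), and RXRA, the nuclear receptor partner RXR alpha, also with 10, from 16.6 to 11.0 FPKM (-0.56). With fewer sites, CCND1 (9), GATA3 (8) and SOX9 (7) passed 1.5-fold, as given above and below.

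Developmental transcription factors, listed by symbol start, often flanked distant sites, 37 of the 222 in the tables (16.7%) beside 5.63% of all genes. Symbol starts took in some genes that are not such factors, such as the long noncoding RNA gene SOX2-OT. A gene beside a long interval has more room for a distant site by the selection, and the part of this in the count was not tested. Most were below an FPKM of 1, since 13 of the 37 were retained, of which 2 were higher, 2 lower and 9 changed less, with a median log2 difference of -0.24. Over the whole list 8 of 67 retained genes were higher and 19 lower, with a median of -0.31, beside 7.67% and 4.14% of all genes. SOX4 went from 12.4 to 31.4 FPKM and SOX9 from 20.9 to 31.9 FPKM, while GATA3 and TFAP2A, an AP-2 factor that went from 49 to 26 FPKM, were lower. The list overlaps that of receptors and luminal factors, of which 5 of 19 flanked a distant site. Besides GATA3 and TFAP2A these were TBX3 (3.22 to 1.98 FPKM), TFAP2C (15.9 to 11.1 FPKM) and TRPS1 (94.1 to 86.1 FPKM). Their median log2 difference was -0.50, and that of all 19 was -0.49, with 7 lower and 3 higher. The higher ones include KRT8 and KRT18, whose EtOH estimate failed.

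Adhesion and synapse genes flanked distant sites in 35 of 168 cases (20.8%), beside 5.63% of all genes. As with the developmental factors, the part of long intervals in this count was not tested. Of the whole list 38 were retained, with 3 higher and 2 lower, beside 7.67% and 4.14% of all genes. Of the 35 flanking genes, 3 were retained. PCDH7, a protocadherin, went from 0.621 to 2.27 FPKM, EPHA4 was lower as given above, and ROBO1, an axon guidance receptor, was at 6.87 and 6.39 FPKM. Olfactory receptors flanked distant sites in 5 of 390 cases (1.28%), and none of the 5 was retained.

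Small-GTPase regulators flanked distant sites as often as genes in general, 16 of 289 (5.54%). Of the 12 retained, 5 were higher and 0 lower, with a median of 0.45, where 34 of the 204 such genes in the tables were higher and 11 lower, and 15.9% of all flanking genes and 7.67% of all genes were higher. FGD4, an exchange factor for CDC42, went from 2.57 to 10.2 FPKM (1.65) and had the site of score 148.58 at 55.4 kb from its locus in the tables. RAB4A, of endosome recycling, went from 15.7 to 35.5 FPKM, ARHGAP32, a GTPase-activating protein, from 15.4 to 26.3 and RHOU from 0.210 to 1.2. Symbol starts also took in genes that are not regulators themselves, such as the antisense transcript ARHGAP5-AS1, at 2.54 and 1.89 FPKM. Of 24 targets shared by progestins and corticoids, 3 flanked a distant site (12.5%), beside 5.63% of all genes. ERRFI1 was higher as given above, KLF15, a zinc finger factor, went from 0.148 to 2.51 FPKM, and SNAI2 was listed at 0 in both conditions. Over the whole list, wherever the genes lay, 13 of 22 retained genes were higher and 1 lower, beside 7.67% and 4.14% of all genes.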

How the data were processed

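The authors aligned ChIP-seq reads to hg19 with Bowtie 1.1.2, per the labels and methods, and deposited MACS binding sites called against input DNA with a score, 10 times the negative log10 of the p-value. For the RNA, the authors used TopHat and Cufflinks and deposited FPKM values per RefSeq transcript, together with coverage, the mean signal over a transcript, used here only to express depth. The site list holds no read counts, so site scores are given without a depth, and the input DNA library is not analysed here. Sites were read as 0-based starts, printed plus 1. A site on a contig without loci was left out.

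Positions were compared with the transcript tables' loci and GENCODE release 44 on hg19 (pandas 2.3.3 and scipy 1.17.1), and sequences were read with pysam 0.24.0. FPKM was summed per gene, retained at 1 or more in either condition, and compared after adding 1. Shares have Wilson and medians exact order-statistic 95% intervals, and a count of 0 has a limit of 3 counts. Calculations were tested on simulated data. The sites named were the 10 highest, the 3 largest groups, those at each threshold and the 5 most remote, with their neighbouring loci, and the genes named were the 10 largest rises, the 10 largest falls and members of the lists, except that some items are not reported here. Other groups, the genes with most distant sites and the sequences shown were picked after their values were seen. The sites, lists and comparisons were chosen with earlier results of these data known, and those on narrow sites, intervals without distant sites and the everted repeat after seeing the values.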

Additional observations from a re-analysis of the deposited data

How the results depend on the processing

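Of 48 recomputed values for 7 results, 28 stayed within a factor of 1.5 of the count or within the interval of the share or median given above. Only the median log2 difference could change sign, and it did so in no setting. The number of distant sites became 2177 with a distance of 20 kb, 811 with 100 kb, 3375 with only the loci of genes at an FPKM of 1 or more, and 283 with all GENCODE genes as loci. The median score stayed between 71.85 and 73.7 in every setting tried. The share with another PR site within the link distance was 18.9% at 5 kb and 45.9% at 50 kb, 20.5% for sites over 100 kb from a locus, 22.1% without the 43-site stretch and 22% without sites within 1 Mb of an assembly gap. The share of flanking genes higher in R5020 was 20.1% with a pseudocount of 0.1, 19.5% with an FPKM of at least 5, 6.86% with no filter, 7.20% at 2-fold and 10.6% without genes that have a PR site within 50 kb, and all genes gave 9.91%, 9.70%, 3.78% and 3.43% for the first 4 of these. The share lower was 7.75% with the pseudocount of 0.1, 2.21% with no filter and 1.11% at 2-fold, against 7.14%, 2.06% and 1.31% of all genes. With an FPKM of at least 5 it was 6.61%, and with the highest transcript of a gene 6.20%, against 4.32% and 4.61% of all genes. The gap to all genes was wider in these last settings. The median log2 difference was 0.12 at an FPKM of 5 and 0 with no filter, where many genes are listed at 0. No distant window held the repeat when all 6 bases of each half-site were required (0%), and the other settings gave 1.19 to 1.87%. Settings on the 43-site stretch, assembly gaps, GENCODE coding genes and PR sites within 50 kb of a gene were chosen after seeing the data. With 1 library per condition no replicate could be left out. No paired analysis was possible because each condition has 1 library.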
